A study of Danio rerio with 8 samples.

Results

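The FGF ligand genes are the 32 rows of the deposited table, of 32520 genes in all, whose name begins with fgf and a digit, without names of receptor-associated or binding proteins. Their counts come from RNA-seq of GFP-positive cells, sorted at 96 hours post fertilization (hpf) from pools of 60 to 80 larvae of the zebrafish line Tg(fli1a:eGFP)y1. In that line fli1a regulatory sequence drives the reporter in endothelium and also in derivatives of the cranial neural crest. All larvae carried the wild-type genotype and all received a morpholino, an antisense oligomer made to block a transcript, at the one-cell stage. A standard control morpholino was used for the 4 control libraries. The other 4 libraries carry the label Hpa2 loss-of-function and are named LOF-labelled here, and for them the morpholino was aimed at an exon-intron boundary in hpse2. The numbers 1_1, 1_2, 2_1 and 2_2 in each group mark 2 biological replicates of 2 libraries. Nothing in the labels says that both libraries of a replicate came from separate pools, so p-values may in part measure technical spread. The main test and the permutation tests below treat the 4 libraries of a group as independent, though they come from 2 biological replicates.

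Fibroblast growth factors are secreted signals that bind receptor tyrosine kinases of the FGFR family, with heparan sulfate chains as a co-factor of the signalling complex. Subfamilies differ in the receptors they bind, and a ligand often comes from mesenchyme and acts on a neighbouring epithelium, or the reverse. The endocrine ligands of the FGF19 subfamily bind heparan sulfate weakly and need klotho proteins in its place, and the proteins of the FGF11 subfamily stay inside the cell and bind voltage-gated sodium channels. Heparanase 2, the product of hpse2, binds heparan sulfate, and the study asks how its loss affects the sorted cells.

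The libraries held 5048839 to 11344918 counts. The morpholino's target hpse2 was at 20.5 to 33.1 CPM (counts per 1000000, scaled for library composition) in the controls and 47.3 to 83.1 CPM in the LOF-labelled libraries. All values where the morpholino was aimed at it thus lay above the controls, as for 2.03% of all genes tested. The main test below did not call hpse2 (log2 fold change 1.20, SE 0.23, edgeR adjusted p = 0.13). Of 12 endothelial markers, 11 were above 1 CPM in all 8 libraries, among them kdrl at a mean of 59.1 CPM and cdh5 at 36.5 CPM, while flt1 had 9 counts in all. Of the endothelial markers fli1a was the most abundant, at a mean of 477 CPM. Fibroblast and cartilage markers were more abundant than the endothelial ones. In the controls 8 fibroblast markers summed to 25573 CPM and 11 neural crest and cartilage markers to 21555 CPM, against 786 CPM for the endothelial markers. The other marker lists had lower mean sums than the endothelial list in the controls, up to 749 CPM for pericytes and smooth muscle. Under the LOF label pericyte and smooth muscle markers (854 CPM) and erythrocyte markers (815 CPM) exceeded the endothelial markers (769 CPM). The lists differ in length, and fli1a, whose regulatory sequence drives the reporter, made up most of the endothelial sum. The ligand transcripts described below therefore belong to a mixed sorted population, and in such bulk samples fewer cells of a type and less RNA per cell cannot be told apart. The libraries fell along a first principal component that held 40.3% of the variance into 2 sets. The first library set joins controls 1_1 and 1_2 to LOF-labelled 2_1 and 2_2, and the second set joins the remaining controls to LOF-labelled 1_1 and 1_2. These sets come from the data and not from the labels, and each holds both groups.

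Few FGF ligand genes reached 1 CPM in all 8 libraries. Of the 32 genes, 7 reached at least 1 CPM in every library, 6 others passed the low-count filter of the group test, 15 had some counts but failed that filter, and 4 had 0 counts in all 8 libraries. Among the 25432 protein-coding genes of the table, 54.9% reached 1 CPM in every library, against 21.9% of the FGF ligand genes. For genes that passed the filter below that level the shares were 4.8% and 18.8%. For genes that had counts but failed the filter they were 28.4% and 46.9%. The shares with 0 counts in all 8 libraries were close, at 11.9% and 12.5%. The 32 genes together held 7166 counts over the 8 libraries, of which the 15 genes that failed the filter held 372. The 7 genes above 1 CPM throughout were fgf3, fgf7, fgf24, fgf18a, fgf12b, fgf13a and fgf13b.

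To compare genes with each other, counts were divided by the deposited gene length and scaled to the same sum in every library (TPM, transcripts per 1000000). There were 5 genes above 10 TPM on average, fgf3, fgf7, fgf24, fgf18a and fgf12b, and together they made up 79.6% of the summed level of all 32 genes. The next gene, fgf2, was at 2.97 TPM. The top of the order was not resolved: fgf3 was at 29.0 ± 11.8 TPM (mean ± SD, n = 8 libraries), fgf7 at 24.8 ± 6.54 TPM and fgf24 at 24.4 ± 7.51 TPM, and these neighbours differed by less than their SDs. Below them, fgf18a at 15.5 ± 2.98 TPM lay under fgf24 in all 8 libraries, fgf12b at 10.3 ± 1.92 TPM lay under fgf18a in 7 of 8, and fgf2 lay under fgf12b in all 8. From fgf2 down to fgf16 at rank 12, no neighbouring pair differed by more than its larger SD. Deposited gene lengths ran from 428 bases (fgf9) to 6893 bases (fgf11b), with 663 bases for fgf7 and 4893 for fgf18a, so that by CPM the order began with fgf18a, fgf24, fgf3 and fgf7.

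**Figure D1:**
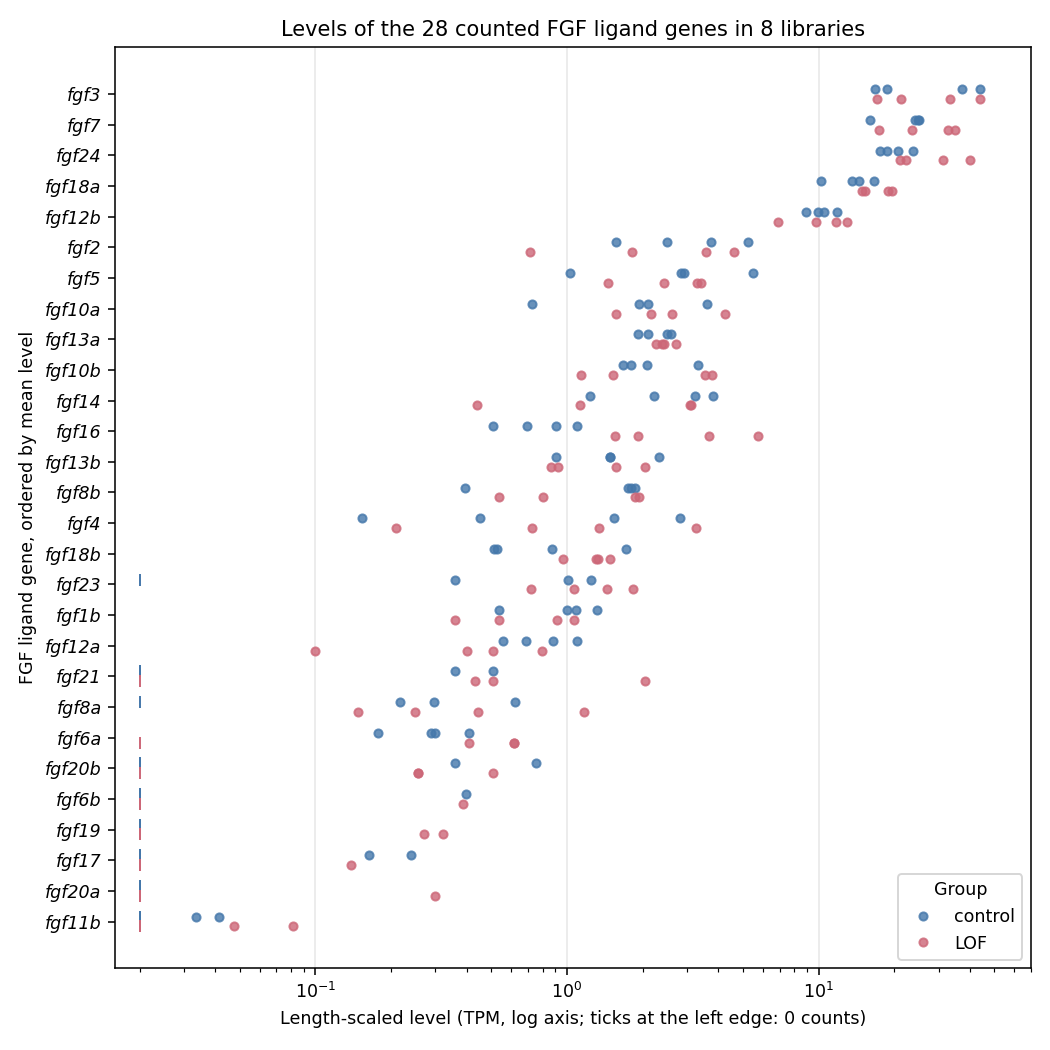
Length-scaled level (TPM, log axis) of the 28 FGF ligand genes with counts, one point per library, control above and LOF-labelled below each gene line, and ticks at the left edge for libraries with 0 counts. The 5 genes from fgf3 to fgf12b lie apart from the rest, which average 2.97 TPM or less.

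The FGF8 subfamily, which signals to mesenchyme and cartilage through the c splice forms of FGF receptors in mammals, gave the most abundant reads. Its members summed to 48.9 ± 5.11 CPM in the controls, with 62.7 ± 10.1 CPM under the LOF label (mean ± SD, n = 4). Most of this came from fgf18a (chromosome 14, 2487672 to 2536342, GRCz11, ENSDARG00000088048), whose mammalian counterpart FGF18 acts on chondrocytes and osteoblasts, and from fgf24 (chromosome 14, 5506983 to 5546497, ENSDARG00000037677), a fish ligand needed to start the pectoral fin bud. The other members were low. The sums of counts over 8 libraries were 110 for fgf18b, 91 for fgf8b, 23 for fgf8a, known from the midbrain-hindbrain boundary, and 3 for fgf17, with 0 to 1 count in each library. The gene body of fgf8b overlaps poll on the same strand and dpcd on the other, which held 1649 and 820 counts, and no use of strand is given in the sources used here, so the value of fgf8b is uncertain.

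The FGF7 subfamily, whose mammalian members are paracrine signals that epithelia receive through FGFR2, had the largest share of the length-scaled ligand level, 44.8%, against 32.7% for the FGF8 subfamily, both as means over the 8 libraries. It was above the FGF8 subfamily in 6 of 8 libraries, while in LOF-labelled 2_1 and 2_2 the FGF8 subfamily was slightly higher, at 48.4 against 47.7 TPM and 38.2 against 37.8 TPM. Its most abundant members were fgf3 (chromosome 7, 54605640 to 54609108, ENSDARG00000101540), which zebrafish embryos need for pharyngeal cartilage and for the ear, and the keratinocyte growth factor gene fgf7 (chromosome 18, 5428472 to 5439775, ENSDARG00000059387), whose order was not resolved. The pair fgf10a (chromosome 21, 19635486 to 19683168, ENSDARG00000030932), needed for pectoral fin outgrowth, and fgf10b were at 2.37 ± 1.12 and 2.36 ± 1.03 TPM (mean ± SD, n = 8), and fgf22 had 0 counts.

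The intracellular FGF11 subfamily, of which neurons are the best known source, made up 13.1% of the length-scaled level. The member fgf12b (chromosome 15, 45414883 to 45510977, ENSDARG00000113525) led it at 10.3 TPM and was followed by fgf13a at 2.36 ± 0.264 TPM, fgf14 at 2.28 ± 1.22 TPM, fgf13b at 1.45 ± 0.538 TPM and fgf12a at 0.627 ± 0.308 TPM, while fgf11b had 5 counts in all. Of these fgf13a varied little, between 22 and 36 counts per library. A list of 6 neuronal markers was also present, at a sum of 89.1 to 155 CPM in the controls, and 83.0 to 116 CPM under the LOF label. The part of neuronal RNA in the FGF11 subfamily values was not tested.

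Ligands best known as endothelial mitogens were rare. The gene of basic FGF, fgf2 (chromosome 14, 567216 to 572742, ENSDARG00000104348), a heparan sulfate-binding ligand that lacks a signal peptide, had 17, 3, 7 and 15 counts in controls 1_1, 1_2, 2_1 and 2_2, with 13, 6, 2 and 10 counts in the LOF-labelled libraries so numbered. In CPM these are 2.03, 0.629, 0.874 and 1.29 in the controls and 1.64, 0.622, 0.264 and 1.34 in the LOF-labelled libraries. The groups overlapped, and the log2 fold change was -0.37 (SE 0.55, 95% interval -1.58 to 0.83, edgeR adjusted p = 0.963), with an exact two-sided permutation p = 0.543. With 1 library left out it ran from -0.75, without LOF-labelled 1_1, to -0.020, without control 1_1. For acidic FGF, fgf1b had 40 counts over all libraries, at 0.851 ± 0.334 TPM, and fgf1a had none.

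The remaining subfamilies gave 178 counts (FGF4), 108 counts (FGF9) and 34 counts (FGF19) over the 8 libraries. In the FGF4 subfamily, fgf4 held 113 counts, fgf5 49, fgf6a 14 and fgf6b 2, and in the FGF9 subfamily fgf16 held 99 counts, fgf20b 8 and fgf20a, needed to start fin regeneration, 1. The level of fgf5 (chromosome 5, 39537195 to 39556884, ENSDARG00000035377), a regulator of the hair cycle in mammals, was 1.55, 0.838, 0.750 and 0.258 CPM in the controls, and 0.378, 0.829, 0.925 and 0.671 CPM under the LOF label. The groups overlapped, and with fgf5 below the low-count filter the exact two-sided permutation test gave p = 0.857. Of the endocrine ligands, fgf23, a phosphate-regulating hormone of bone in mammals, had 24 counts, fgf21, a metabolic hormone of the liver in mammals, 8 and fgf19 2. The klotho co-receptor genes of these ligands, klb and kl, were at 0.0515 and 0.0110 TPM.

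The 4 genes with 0 counts were fgf1a, fgf9, fgf11a and fgf22. A count of 0 allows up to 3 counts in a library, or 0.258 to 0.629 CPM depending on its depth, for counting error only. The table also lists genes that nearly every cell uses at 0 in all 8 libraries, among them rpl32, a protein of the large ribosomal subunit, psma5, a proteasome subunit, and sec13 and grb2a. Of 73 cytosolic ribosomal protein genes 1 was at 0 throughout, of 45 proteasome genes 3 and of 65 translation initiation factor genes 4. The 3 proteasome genes were psma5, psmb11a and psmb11b, and the 4 initiation factor genes were eif1ad, eif2b1, eif4a1b and eif4e1b. These tallies cover whole gene families, and whether nearly every cell uses each of these genes was not tested. The 4 ligand genes are therefore described as listed at 0, not as unexpressed.

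**Figure D2:**
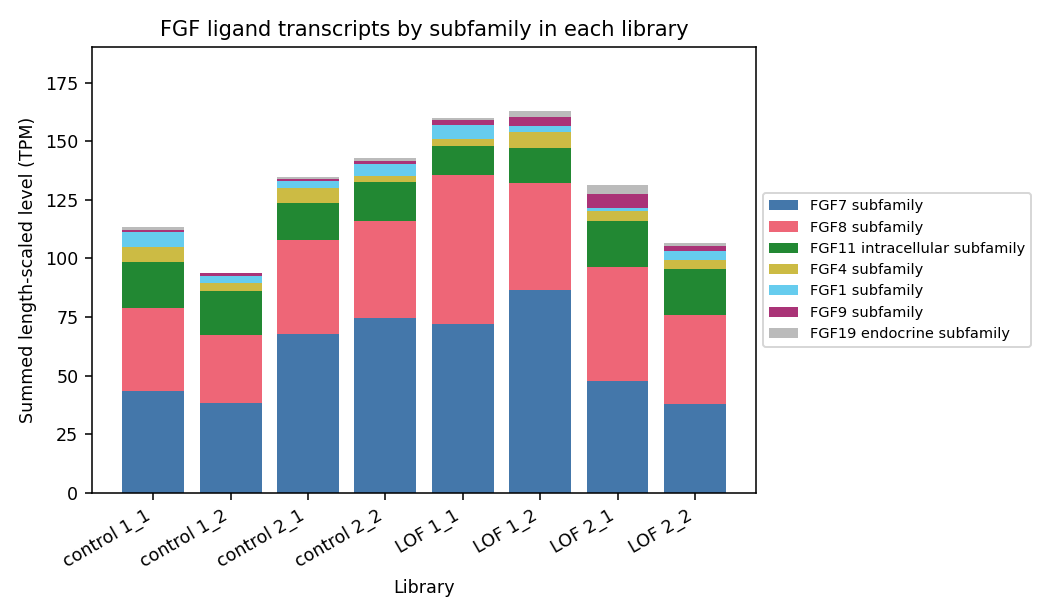
Summed length-scaled level (TPM) of the FGF ligand genes in each of the 8 libraries, stacked by subfamily. The totals lie between 93.6 and 163 TPM, and the FGF7 and FGF8 subfamilies fill most of each bar.

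Zebrafish carry duplicate copies of many FGF genes, and the sorted cells held the copies unequally. Of 9 duplicate pairs in the table, 5 had the same copy higher per length in all 8 libraries. The copy fgf12b was at 16.5 times the TPM of fgf12a, fgf18a at 14.2 times fgf18b, fgf8b at 3.48 times fgf8a with the reservation on its overlap, and fgf13a at 1.63 times fgf13b. The fifth pair was fgf1b with 40 counts and fgf1a listed at 0. In contrast fgf10a and fgf10b were level, with fgf10a higher in 5 of 8 libraries. Counts were too few to order the fgf6, fgf11 and fgf20 pairs, which held 16, 5 and 9 counts.

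In the comparison of LOF-labelled with control libraries, no FGF ligand gene passed the test for a change. Of the 13 genes tested, 0 were called by edgeR's quasi-likelihood test at an adjusted p under 0.05 over 15559 genes, where 14 genes or 0.09% were called. DESeq2 also called 0 ligand genes, where it called 0.585% of the 15886 genes it tested, and so did every other fit tried. At an unadjusted p under 0.05 edgeR had 1 ligand gene, fgf24, with a higher value in the LOF-labelled libraries. Of all genes 6.29% passed that line, 2.96% with higher and 3.33% with lower values. DESeq2 had 2 at that line, fgf16 and fgf24, beside 6.01% of the genes to which it gave an adjusted p. Of the 13 genes, 8 had higher values and 5 lower values in the LOF-labelled libraries, with a median log2 fold change of 0.11 against 0.002 over all genes tested and a median size of 0.24 against 0.14. In none of the 13 did the groups separate, where the groups did not overlap for 4.65% of all genes tested, 2.03% with the LOF-labelled libraries above and 2.62% with them below. Together the 32 genes summed to 99.8 ± 11.9 CPM in the controls, with 116 ± 17.2 CPM under the LOF label (mean ± SD, n = 4). The gap was smaller than the SD of the LOF-labelled libraries and larger than that of the controls. In the first library set the sums were 95.9 and 84.9 CPM in the controls, and 110 and 94.1 CPM under the LOF label. In the second set they were 106 and 112 CPM, and 133 and 126 CPM.

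The level of fgf24 was 18.6, 18.02, 21.4 and 18.3 CPM in controls 1_1, 1_2, 2_1 and 2_2, with 36.4, 19.6, 29.6 and 20.4 CPM in the LOF-labelled libraries. The controls were close together, and LOF-labelled 1_1 and 2_1 lay above all of them while 1_2 and 2_2 lay inside the control range. The log2 fold change was 0.47 (SE 0.20, 95% interval 0.040 to 0.90, edgeR adjusted p = 0.752), and the exact two-sided permutation test over 70 arrangements gave p = 0.0857. In each library set the difference in mean log2 CPM was of like size, 0.42 in the first and 0.43 in the second. Without LOF-labelled 1_1 the log2 fold change of the fit was 0.28.

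The level of fgf18a was 29.7, 21.8, 25.2 and 30.3 CPM in the controls. With the LOF label it was 35.4, 35.7, 29.9 and 29.7 CPM. LOF-labelled 1_1 and 1_2 lay above all controls, and LOF-labelled 2_1 and 2_2 lay within the control range. The log2 fold change was 0.28 (SE 0.13, 95% interval -0.012 to 0.57, edgeR adjusted p = 0.809), with an exact permutation p = 0.143. The difference in mean log2 CPM was 0.22 within the first set and 0.36 within the second.

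The level of fgf3 was 13.2, 15.3, 26.5 and 30.7 CPM in the controls. With the LOF label it was 24.1, 30.7, 15.99 and 13.15 CPM. The groups covered the same range, and the log2 fold change was -0.040 (SE 0.33, 95% interval -0.77 to 0.69, edgeR adjusted p = 0.993), with an exact permutation p = 0.886. Within each group the values were low in the first library set and high in the second.

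The level of fgf7 was 6.68, 4.61, 6.25 and 6.18 CPM in the controls. With the LOF label it was 8.32, 8.60, 6.21 and 4.70 CPM. Here LOF-labelled 1_1 and 1_2 were above the controls and 2_1 and 2_2 within their range. The difference in mean log2 CPM was -0.040 within the first set and 0.43 within the second. The log2 fold change of the fit was 0.22 (SE 0.24, 95% interval -0.30 to 0.74, edgeR adjusted p = 0.936), with an exact permutation p = 0.457. The sodium channel-binding fgf12b was at 6.32, 6.91, 5.12 and 6.70 CPM in the controls. With the LOF label it was 4.03, 5.49, 7.14 and 8.05 CPM. Its LOF-labelled values lay on both sides of the controls, with a log2 fold change of -0.020 (SE 0.24, 95% interval -0.56 to 0.52, edgeR adjusted p = 0.996) and an exact permutation p = 0.886.

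The level of fgf10a was 0.835, 2.30, 3.75 and 2.15 CPM in the controls. With the LOF label it was 2.77, 4.35, 1.72 and 2.42 CPM. The groups overlapped, and the log2 fold change was 0.34 (SE 0.44, 95% interval -0.63 to 1.30, edgeR adjusted p = 0.953), with an exact permutation p = 0.514. It was 0.036 without LOF-labelled 1_2, 0.061 without control 1_1, 0.517 without LOF-labelled 2_1 and 0.703 without control 2_1. For the other tested genes the values were 0.41 for fgf18b, 0.13 for fgf4, 0.11 for fgf10b, 0.071 for fgf13a, -0.24 for fgf13b and -0.24 for fgf8b. Their SEs lay between 0.24 for fgf13a and 0.78 for fgf4. The interval of fgf4 ran from -1.60 to 1.86, past 1 on the log2 scale in both directions. The intervals of fgf10a, fgf18b and fgf10b reached above 1 and those of fgf2, fgf13b and fgf8b below -1, so a change of that size was not excluded for these genes either.

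**Figure D3:**
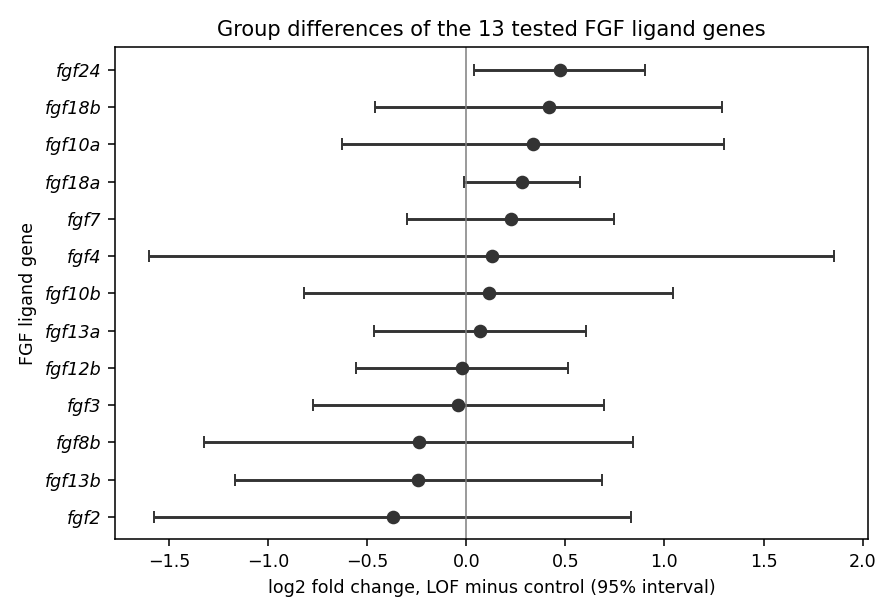
Log2 fold change of the 13 tested FGF ligand genes, LOF-labelled minus control, with 95% intervals from the edgeR fit, ordered by value. The interval of fgf24, 0.040 to 0.90, is the one that does not include 0, before adjustment over all genes.

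One gene below the low-count filter stood out, fgf16 (chromosome 14, 10751249 to 10762629, ENSDARG00000042233), a ligand of the FGF9 subfamily described in the zebrafish pectoral fin. It had 6, 2, 4 and 9 counts in controls 1_1, 1_2, 2_1 and 2_2, with 9, 25, 33 and 11 counts in the LOF-labelled libraries. In CPM these are 0.715, 0.419, 0.500 and 0.773 in the controls and 1.13, 2.59, 4.36 and 1.48 in the LOF-labelled libraries. The lowest LOF-labelled library lay above the highest control, as it did for 2.03% of the genes that passed the filter. With the groups apart in this way, the exact two-sided permutation test could only give p = 0.0286, the smallest that 70 arrangements allow. It therefore restates that separation and adds nothing to it. The summed counts were 78 and 21, a ratio of 3.76 relative to library totals (95% exact interval 2.30 to 6.42, counting error only). Without the low-count filter edgeR put the log2 difference at 1.92 (SE 0.50, adjusted p = 0.306), and DESeq2 gave 1.95 (adjusted p = 0.125), so fgf16 was not called in either. With counts summed per biological replicate the difference was 1.92 (SE 0.50), and fgf16 was not called there. In 5 of the 8 fits with 1 library left out it passed the filter, through the LOF-labelled libraries in which it was high, with an edgeR adjusted p of 0.263 to 0.755. In mean log2 CPM with a prior count of 2 the difference was 1.80 within the first set and 1.19 within the second. That prior pulls differences at low counts toward 0, so these values are not on the scale of the fits. The gene was singled out after its values were seen.

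**Figure D4:**
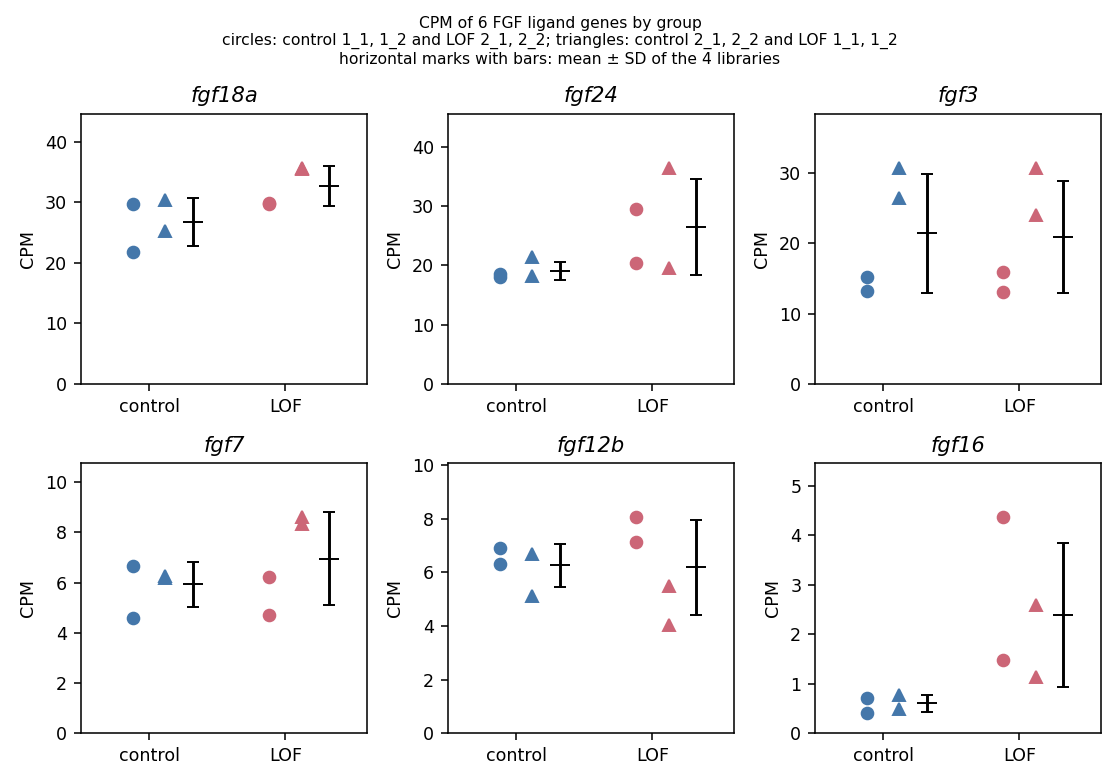
CPM of 6 FGF ligand genes in each library by group, with circles for the first library set, triangles for the second, and horizontal marks with bars for mean ± SD of the 4 libraries. The groups overlap for fgf18a, fgf24, fgf3, fgf7 and fgf12b, and for fgf16 the LOF-labelled libraries, at 1.13 to 4.36 CPM, lie above the controls, at 0.419 to 0.773 CPM.

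Marker sums of other cell types are given beside these values. The sum of the 11 neural crest and cartilage markers was 19157 to 23566 CPM in the controls, and 11815 to 15750 CPM under the LOF label, and that of the 8 fibroblast markers was 23439 to 27607 and 26409 to 32607 CPM. The groups did not overlap for the first list and overlapped for the second. Of the cartilage markers 9 of 11 were above 1 CPM in every library, and of the fibroblast markers 8 of 8. Their part in the values of fgf24, fgf18a and fgf16 was not tested.

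Of the other untested genes, fgf12a had 33 counts in the controls and 19 in the LOF-labelled libraries, a ratio of 0.583 (95% exact interval 0.313 to 1.06), and fgf14 had 24 and 18. The ratio was 1.58 for fgf8a (9 and 14 counts, interval 0.635 to 4.13), 1.69 for fgf23 (9 and 15, interval 0.692 to 4.38) and 0.749 for fgf1b (23 and 17, interval 0.375 to 1.46). Each of these intervals includes 1, and they hold counting error only, without the spread between libraries. For fgf21, fgf6a, fgf20b, fgf11b, fgf17, fgf6b, fgf19 and fgf20a no library held more than 4 counts, and the groups were not comparable at this depth. Fitted without the filter, the smallest unadjusted p among the untested genes other than fgf16 was 0.149.

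A few ligand genes separated the library sets. With both directions counted this was no larger a share than of all genes, and with the second set higher it was larger, though on only 3 genes. The values of fgf3 were 13.15 to 15.99 CPM in the first set and 24.1 to 30.7 CPM in the second, in both groups. The gene fgf4, known as a limb bud ligand in the mouse, was at 0.596, 0.210, 3.37 and 1.80 CPM in controls 1_1, 1_2, 2_1 and 2_2, with 1.64, 3.84, 0.264 and 0.939 CPM in the LOF-labelled libraries so numbered. It was thus below 1 CPM in all 4 libraries of the first set and above it in all 4 of the second. For fgf10b the sets were 0.805 to 1.31 and 1.37 to 2.52 CPM, or 6 to 11 and 11 to 25 counts, and the nearest libraries, controls 1_1 and 2_1, both held 11 counts. Of the 13 tested genes these 3, or 23.1%, separated the sets, all with the second set higher, where 27.2% of all genes tested separated them and 13% did so with the second set higher. The untested fgf14 lay the other way, at 0.925 to 1.19 CPM in the first set and 0.126 to 0.625 CPM in the second, from 1 to 10 counts per library.

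The genes fgf3 and fgf4 are neighbours on chromosome 7, in the order fgf3, fgf4, fgf19 on the forward strand. There are 7951 bases between fgf3 and fgf4 and 17128 bases between fgf4 and fgf19, and no other listed gene lies wholly in either gap. A listed antisense gene on the reverse strand, AL929586.1 (54609479 to 54651636), runs over fgf4, fgf19, most of the first gap and all of the second. It held 6 counts over the 8 libraries. In mean log2 CPM with a prior count of 2, the second set exceeded the first by 0.94 for fgf3 and by 1.97 for fgf4. The gene fgf19 had 2 counts in all, 1 each in LOF-labelled 1_2 and 2_1. Another close pair, fgf6b and fgf23 on chromosome 4 with 9860 bases between them, had too few counts for such a comparison. Of the 32 genes 7 lie on chromosome 14, among them fgf2, fgf18a, fgf24 and fgf16, but no 2 of these are adjacent, with 48 to 205 other genes between neighbours.

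Of the 12 marker lists several also separated the sets. The sum of the 12 endothelial markers was 647 to 664 CPM in the first set and 858 to 922 CPM in the second, that of the 5 pericyte and smooth muscle markers was 621 to 761 and 833 to 1018 CPM, and that of the 4 erythrocyte markers was 943 to 1325 and 338 to 379 CPM. The sums of neuronal markers were 103 to 155 and 83.0 to 90.5 CPM, those of the 4 macrophage markers 21.2 to 42.9 and 8.24 to 13.1 CPM, and those of the 5 photoreceptor and lens markers 229 to 625 and 67.9 to 97.9 CPM. The summed FGF11 subfamily lay in the order of the neuronal, erythrocyte, macrophage and photoreceptor and lens markers, at 14.2 to 16.3 CPM in the first set against 11.4 to 12.4 CPM. Of its members, fgf12b, fgf13a and fgf13b each overlapped between the sets, while fgf14 was lower in the second. The summed FGF7 subfamily lay in the order of the endothelial and pericyte markers, at 21.1 to 25.0 CPM in the first set against 37.7 to 45.9 CPM. Of the endothelial markers 11 of 12 were above 1 CPM in all 8 libraries, of the pericyte markers 5 of 5 of the erythrocyte markers 3 of 4, of the neuronal markers 6 of 6, of the macrophage markers 2 of 4 and of the photoreceptor and lens markers 3 of 5. Their part in the levels of fgf3, fgf4, fgf10b and the FGF7 and FGF11 subfamilies was not tested.

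**Figure D5:**
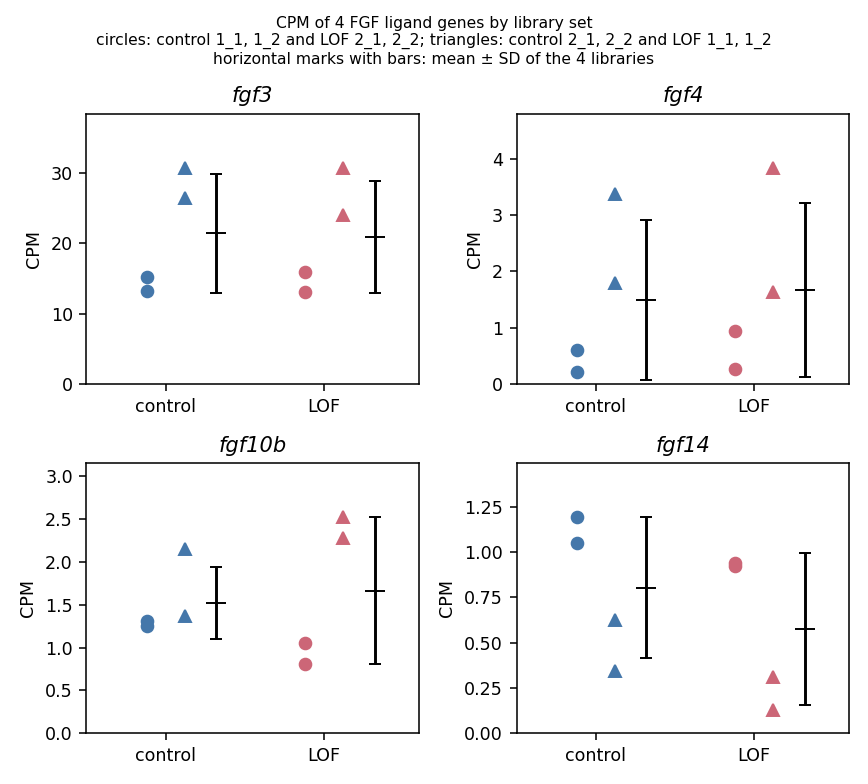
CPM of fgf3, fgf4, fgf10b and fgf14 in each library by group, with circles for the first library set, triangles for the second, and horizontal marks with bars for mean ± SD of the 4 libraries of a group. In both groups the triangles lie above the circles for fgf3, fgf4 and fgf10b and below them for fgf14.

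Transcripts of FGF receptors were more abundant than those of the 32 ligand genes in every library. The 5 genes of the signalling receptors fgfr1a, fgfr1b, fgfr2, fgfr3 and fgfr4 summed to 3.45 to 4.42 times the TPM of the 32 ligand genes, with fgfr2 at 249 ± 35.3 TPM and fgfr4 at 142 ± 36.4 TPM the highest (mean ± SD, n = 8). This ligand sum includes the intracellular FGF11 subfamily, 13.1% of the mean level, and the receptor sum leaves out fgfr1bl, with a row at 38.2 TPM. Of 8 receptor rows tested, 0 were called by edgeR. Where 6.29% of all genes tested had an unadjusted p under 0.05, 1 of the receptor rows did. This was fgfr3, which acts in growth cartilage in mammals, at 150 ± 9.55 CPM in the controls, and 97.9 ± 14.8 CPM under the LOF label (log2 fold change -0.61, SE 0.12, edgeR adjusted p = 0.108). It was called in 2 of the 17 alternative fits, by DESeq2 and with the crossed replicate block, and not with counts summed per biological replicate, with the random effect or with any library left out. The cartilage marker sums given above were lower in the same libraries, and their part in the fgfr3 value was not tested. The next smallest p belonged to fgfr1b, with a log2 fold change of 0.18 (edgeR adjusted p = 0.852).

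Among the other genes of the pathway edgeR also called 0. Counting receptors, 5 of 61 pathway genes tested, or 8.2%, had groups that did not overlap, against 4.65% of all genes tested. Among the 5, fgfr3, flrt1b and etv5a were lower and spred2a and ccnd1 higher under the LOF label. These 5 are named after their values were seen. Of 6 co-receptor and binding protein genes tested, 4 were above 0 and 2 below, led by flrt1b, of a family of FGFR-binding membrane proteins, with -0.92 on the log2 scale (SE 0.31, adjusted p = 0.588) and anos1a, a secreted heparan sulfate-binding protein, at 0.28 (adjusted p = 0.813). Of 21 feedback and target genes 12 were above 0 and 9 below, with a median of 0.012. The members of smallest p were etv5a, an ETS factor induced by FGF signals, at -1.03 (SE 0.31, adjusted p = 0.542), and dusp1, a phosphatase of MAP kinases, at 0.23 (adjusted p = 0.795). The feedback inhibitors spry2 and spry4, which FGF signals induce, were at 354 and 374 TPM and had log2 fold changes of 0.068 and -0.032. Other members of this list differed from them. The level of dusp6 was 2.41 TPM, and etv1, etv4 and etv5b, like etv5a, were below 0, at -0.55, -0.18 and -0.26, none of them called. Apart from etv5a, these genes were named after their values were seen. Of 26 signal transduction genes 18 were above 0 and 8 below, with a median of 0.027, led by the adaptor frs3 at 0.84 (SE 0.38, adjusted p = 0.795) and nras at -0.12 (adjusted p = 0.896). The median over all genes tested was 0.002.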

How the data were processed

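The authors deposited 1 table of unnormalized read counts for 32520 genes, which also gives Ensembl identifiers, names, coordinates and gene lengths in bases. GRCz11 is the build named in the submitters' processing notes. Polyadenylated RNA was sequenced from ultra-low-input libraries, per the labels' protocols. No aligner, counting tool or strand setting is given in the sources used here. Columns were matched to samples through the sample descriptions, which left 0 unassigned.

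Low-count genes were removed with filterByExpr, which left 15559, and totals were scaled by trimmed means (TMM). The main test was edgeR's quasi-likelihood test (version 4.0.16, R 4.3.3, robust) without a replicate block, and calls needed a Benjamini-Hochberg adjusted p under 0.05 over all genes. CPM are counts per 1000000 of the TMM-scaled total, and TPM are counts per gene length scaled to 1000000. Permutation tests and the log2 differences within and between library sets used log2 CPM with a prior count of 2. Fold changes are LOF-labelled minus control, and each SE was derived from the F statistic. The code was tested on simulated data. Alternatives were DESeq2 1.42.0, limma 3.58.1 with biological replicate as a random effect, other scaling and filters, 3 replicate blocks, sums per biological replicate and omission of each library.

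The members and lists were chosen with earlier results of these data known. Members named with full values are the 8 highest by TPM and those at an unadjusted p under 0.05; others were chosen after their values were seen. Of 73 entries in 4 pathway lists, 5 matched no gene name. No 2 libraries of the same group agreed within sampling noise, with a chi-square per gene of 2.56 or more. Libraries of the same biological replicate were closer, at 2.56 to 5.8, than libraries of different replicates of a group, at 13.68 to 24.15. In each group the 2 biological replicates also fall in different library sets. No sequences are shown.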

Additional observations from a re-analysis of the deposited data

Results flagged for a closer look

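The level of fgf10b in control 2_2 was 2.15 CPM, while controls 1_1, 1_2 and 2_1 lay between 1.26 and 1.37 CPM, a sample far from the others of its group. The test for such samples was applied to 26 groups of 4 libraries, and chance flags about 1 in 20 groups. The flagged value rests on 25 counts, against 11, 6 and 11 in controls 1_1, 1_2 and 2_1. Control 2_2 belongs to the second library set, in which LOF-labelled 1_1 and 1_2 were at 2.52 and 2.28 CPM for fgf10b. Control 2_1, of the same set and biological replicate, was at 1.37 CPM.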

How the results depend on the processing

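No alternative called any FGF ligand gene, and the lowest adjusted p among the 13 tested genes in any alternative was 0.217 (fgf18a, crossed block). The count of all genes called, 14 in the reported fit, was 32 without the low-count filter, 93 with DESeq2, 0 with counts summed per biological replicate, 2 with biological replicate as a random effect, and 0 to 20 with 1 library left out, reaching 0 in the fits that lacked LOF-labelled 2_1, LOF-labelled 2_2 or control 1_1. The replicate block of the 4 numbers called 0 genes and the crossed replicate block, known from earlier results of these data, 396. Libraries of the same biological replicate number deviated from their group means in opposite directions (correlation -0.338 to -0.223), and crossed ones together (0.236 to 0.37). Since deviations were taken from the group means, these ranges depend on each other and restate the library sets. What the replicate numbers stand for was not tested. Among the other pathway genes 1 was called with DESeq2 and 1 with the crossed replicate block, fgfr3 in both. Of the 13 log2 fold changes 6 kept their sign in all alternatives that gave a value, 17 for fgf24, fgf18a and fgf7 and 16 for fgf10a, fgf18b and fgf2, which the filter of 10 counts in every library removed, and 7 changed sign in at least 1, none of them called. The number of ligand genes above 1 CPM in all libraries was 7, and 10 at 0.5 CPM, 6 at 2 CPM and 7 to 8 with 1 library left out. Of the 8 highest genes by TPM 6 were also among the 8 highest by CPM. Depth limits the genes below the filter, of which none exceeded 33 counts in a library. The causes of these differences were not tested.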
